A study of Mus musculus with 6 samples.

Results

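Clustered replication-dependent histone genes were followed through the first weeks after birth in mouse hindlimb skeletal muscle. The set is the 68 protein-coding genes, of 39010 genes in the deposited expression table, whose symbol begins with Hist1h, Hist2h, Hist3h or Hist4h. By histone type these are 6 H1, 19 H2A, 18 H2B, 12 H3 and 13 H4 genes. By cluster 55 belong to Hist1 on chromosome 13, 10 to Hist2 on chromosome 3, 2 to Hist3 on chromosome 11 and 1 to Hist4 on chromosome 6. The groups are wild-type mice of a mixed strain background at postnatal day 2 (P2), day 7 (P7) and day 14 (P14), with 2 libraries per stage. All 6 libraries came from total RNA depleted of ribosomal RNA, and no treatment or other genotype was part of the series. The labels give neither the sex of the mice, nor pooling, nor which hindlimb muscles were taken.

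Replication-dependent histone genes supply the core histones H2A, H2B, H3 and H4 and the linker histone H1 that package newly made DNA. They are transcribed in S phase, mostly lack introns, and their mRNAs end in a conserved stem-loop in place of a poly(A) tail. The stem-loop binding protein Slbp binds that structure and the exonuclease Eri1 trims it, and the mRNA is degraded when DNA synthesis stops. Muscle fibres are post-mitotic, whereas myoblasts, satellite cells and many non-muscle cells of a young limb still divide. Ribosomal depletion does not select for poly(A) tails, so mRNAs of both kinds enter such libraries.

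Levels are FPKM, fragments scaled to transcript length and to the mapped fragments of the library, as deposited. Most members are short genes, and reads of near-identical copies may have been split by the counting, so the level of any member alone is uncertain. The coding sequences in GENCODE M21, from 1 transcript per gene, put the 67 members with a coding transcript into 31 distinct proteins. Members whose gene identifier has no coding transcript there, such as Hist2h2bb, were matched by symbol where possible. Where a gene had 2 coding transcripts, the one with the most bases after the stop codon was read. All 13 H4 genes encode the same protein, 9 H2A genes share another, and the H3 genes fall into groups of 7, 4 and 1. The group of 1 is Hist2h3c1, whose transcript read here gives 181 residues against 136 for Hist2h3c2. Hist2h3c1, Hist1h2be, Hist1h2bp, Hist1h2bq and Hist1h2br each have 2 coding transcripts, so their groups may depend on that choice. A level also depends on the annotated length, and 18 tested members have a GENCODE M21 transcript of at least 1000 bases, far longer than the coding part. The deposited levels came from another annotation, whose loci can be shorter. Hist1h4d, Hist1h2bh and Hist1h1e span 393, 436 and 748 bases there, against 1138, 1679 and 1930 in GENCODE M21.

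The stem-loop letters are shown for members with high levels, steep falls or no called change, because they are the sequence feature that defines the family. The annotated transcripts run on past these letters, by 770 to 1861 bases for Hist1h1e, Hist1h1c, Hist1h2be and Hist1h4d. For the others shown they run on by 23 to 74 bases. The 16 bases of the stem-loop are in capitals, written as DNA from the GENCODE M21 transcripts on GRCm38 with 5 bases on either side, and the coordinates cover the capitals.
Hist1h1e (chr13:23621782-23621797, minus strand): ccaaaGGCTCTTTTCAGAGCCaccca
Hist1h1c (chr13:23739512-23739527, plus strand): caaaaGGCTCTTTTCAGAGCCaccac
Hist1h2ao (chr13:21810898-21810913, plus strand): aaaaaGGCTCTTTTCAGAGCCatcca
Hist2h2ac (chr3:96220418-96220433, minus strand): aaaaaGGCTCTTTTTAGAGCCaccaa
Hist1h2bb (chr13:23747203-23747218, plus strand): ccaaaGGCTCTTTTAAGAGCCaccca
Hist1h2be (chr13:23585531-23585546, minus strand): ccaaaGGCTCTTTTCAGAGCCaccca
Hist1h3c (chr13:23745047-23745062, minus strand): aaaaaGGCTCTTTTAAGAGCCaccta
Hist1h4d (chr13:23581950-23581965, plus strand): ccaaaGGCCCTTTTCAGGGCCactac
Hist1h4b (chr13:23757366-23757381, plus strand): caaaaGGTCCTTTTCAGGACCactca

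A search for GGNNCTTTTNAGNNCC, on the transcript strand after the stop codon, found the stem-loop in 44 of the 67 members, beginning 22 to 59 bases after the stop codon. In 16 of the 67 the annotation holds fewer than 40 bases after the stop codon. Where at least 100 bases were annotated there, the letters stood within those 100 bases in 26 of 31 members, against 28 of 19938 genes of the whole annotation (0.140%), members included. The form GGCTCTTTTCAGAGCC was the commonest, in 26 members of types H1, H2A, H2B and H3. The H4 genes used other stems, with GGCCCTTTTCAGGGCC in 7 of them. Hist1h2bc and Hist2h2be, described below for their levels at P14, held no match in their annotated transcripts, which says only that these letters are not in the annotated sequence.

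The bases just upstream of the annotated start are shown for the H1, H2B, H3 and H4 genes with the highest mean level, as RefSeq gives them on GRCm38.p6. Capitals mark the CCAAT box, the TATA box in the form TATAAA, the octamer ATTTGCAT and the H1 element AAACACA. Each was searched on both strands.
Hist1h1e (chr13:23622559-23622678, minus strand): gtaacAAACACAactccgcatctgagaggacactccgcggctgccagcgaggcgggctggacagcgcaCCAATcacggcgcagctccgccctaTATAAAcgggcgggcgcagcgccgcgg
Hist2h2bb (chr3:96269580-96269699, plus strand): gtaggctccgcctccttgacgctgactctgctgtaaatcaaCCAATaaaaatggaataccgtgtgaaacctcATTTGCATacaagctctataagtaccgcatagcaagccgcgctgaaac
Hist1h3i (chr13:21783398-21783517, minus strand): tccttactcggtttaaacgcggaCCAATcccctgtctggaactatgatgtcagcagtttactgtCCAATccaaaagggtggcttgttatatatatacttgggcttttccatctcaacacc
Hist1h4d (chr13:23581448-23581567, plus strand): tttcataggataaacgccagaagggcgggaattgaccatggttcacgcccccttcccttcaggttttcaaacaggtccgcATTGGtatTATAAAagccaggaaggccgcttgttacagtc

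RefSeq promoters were matched for 61 of the 68 members. In the 250 bases before the start, CCAAT stood in 82.0% of the members' promoters and in 34.5% of all 27025 promoters. It was in all H1, H2A and H2B promoters and 8 of 10 H3 promoters, but in 3 of 12 H4 promoters, of which that of Hist1h4d is one. TATAAA stood in 47.5% against 13.0%, and the octamer in 21.3% against 1.61%. The octamer was found in 7 of 17 H2A and 6 of 16 H2B promoters and in no H1, H3 or H4 promoter. AAACACA stood in 5 of 6 H1 promoters and in 6.22% of all promoters. Among tested members with a matched promoter, the median log2 difference between P14 and P2 was -1.90 for the 12 with an octamer and -1.95 for the 47 without.

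The libraries hold 12175 to 13337 genes at an FPKM of at least 1. The worth of 1 fragment, read from the lowest values of single-exon genes, puts the depth of the other libraries at 73.8% to 96.3% of the first P2 library, with both P14 libraries lowest. At a gene length of 400 bases 1 fragment is worth 0.231 to 0.318 FPKM, so a member near 1 FPKM rests on few fragments. Xist, transcribed from the inactive X chromosome of females, was at 74.7 FPKM in P2 replicate 2 and 61.2 FPKM in P7 replicate 1, and below 1 in the others, so no P14 library had it. The median log2 difference over all 13566 tested genes was -0.05 for P14 versus P2, -0.27 for P7 versus P2 and 0.23 for P14 versus P7. Both differences with P7 came close to 0 when libraries were rescaled by median-of-ratios or quantiles, and the members' changes are read against these shifts.

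Clustered histone mRNA was high at P2 and fell through P7 to P14 in every histone type. The summed FPKM of the 68 genes was 1975 and 2982 in the P2 libraries, 1352 and 1185 at P7, and 847 and 590.3 at P14. The stages did not overlap, and P7 retained 51.2% and P14 29.0% of the P2 mean. In bulk tissue, fewer cells of a type and less RNA per cell cannot be told apart. The clusters kept their proportions: Hist1 gave 82.6% of the sum at P2, 81.3% at P7 and 82.2% at P14, and Hist2 gave 16.5%, 17.7% and 16.5%. The values by type, plotted per library, show the order of the types at each stage.

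**Figure D1:**
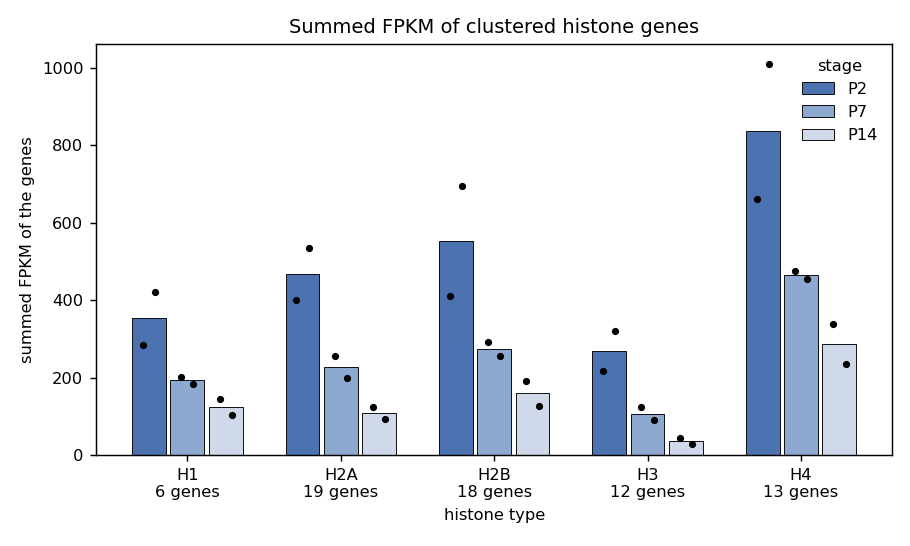
Summed FPKM of the clustered histone genes by histone type (bars: mean of 2 libraries at P2, P7 and P14; points: libraries). H4 is highest at all stages, at 836.0 FPKM at P2 and 287.7 at P14, and H3 lowest, at 268.7 and 38.1.

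A test needed 1 FPKM or more in 2 or more libraries, which 66 members had. Of these, 56 fell and none rose between P2 and P14 (limma, adjusted p below 0.05), where 12.9% of all tested genes were called lower and 11.5% higher. Their median log2 difference was -1.90, from -2.89 to 0.52, against -0.05 for all genes. At an unadjusted p below 0.05, 60 members were lower and 1 higher, where 20.8% and 18.5% of all tested genes were. In 62 of the 66 both P14 libraries lay below both P2 libraries, as in 35.2% of all tested genes, and in 1 both lay above, as in 28.5%. The authors' deposited table of this comparison, with an unadjusted p below 0.05, has 59 of the 66 lower and 1 higher, against 14% and 19.4% of tested genes. Leaving out 1 library at a time kept most of these calls, while fewer genes were called lower over the whole table in each fit. The median member difference then ranged from -2.21 to -1.65. The 56 comprised 4 of 5 tested H1, 16 of 18 H2A, 14 of 18 H2B, all 12 H3 and 10 of 13 H4 genes.

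Each interval alone gave fewer calls. From P2 to P7, 3 members fell and none rose, where 1.18% of all tested genes were lower and 0.111% higher. The 3 are Hist1h2ah, Hist1h2al and Hist2h3b, and 52 members were lower at an unadjusted p below 0.05, where 25.6% of all tested genes were, and none was higher, where 1.84% were. Both P7 libraries lay below both P2 libraries in 58 members (53.9% of all tested genes) and above them in 1 (6.42%). With any 1 library left out, most or all of these calls ended, and calls over all genes became fewer too. The median member difference then ranged from -1.28 to -0.75. The count was 24 when only protein-coding genes were tested, where the calls over all genes rose too, to 657 of 12048 lower. From P7 to P14, 13 members fell and none rose, where 1.6% of all tested genes were lower and 8.75% higher. At an unadjusted p below 0.05, 42 members were lower (5.87% of all tested genes) and none higher (27.7%). Both P14 libraries lay below both P7 libraries in 58 members (15.3%) and above them in 3 (53.8%). All limma calls of lower members ended without either P7 library or either P14 library, where calls over all genes became fewer too. The median member difference was then -0.75 and -0.99 without P7 replicates 1 and 2, and -1.14 and -0.61 without P14 replicates 1 and 2. Calls rose without either P2 library, for members and for all genes. The number called lower was 39, 36 and 45 under median-of-ratios, quantile and protein-coding-sum scaling. Over all 13566 genes 781, 552 and 1428 were lower under these scalings, against 217. At an unadjusted p below 0.05 in the authors' deposited tables, 46 of 66 members were lower (7.06% of all tested genes) and none higher (6.17%) at P7 than at P2. At P14 against P7 the authors' deposited table has 54 lower (9.76%) and 1 higher (17%). The median member changed by -0.998 on the log2 scale in the first interval and by -0.91 in the second, with all genes at -0.27 and 0.23. The difference between the intervals was called for none of the 66 by limma and for 0.0663% of all genes. At an unadjusted p below 0.05 it was 1 member, and 25.4% of all genes. The F test over the 3 stages called 54 members and 21.1% of all genes. That count went down most without a P7 or a P14 library, and the share of all genes in those fits is not given here. In 52 of the 66 members every P2 library was above every P7 library and every P7 library above every P14 library, as in 10.7% of all tested genes.

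**Figure D2:**
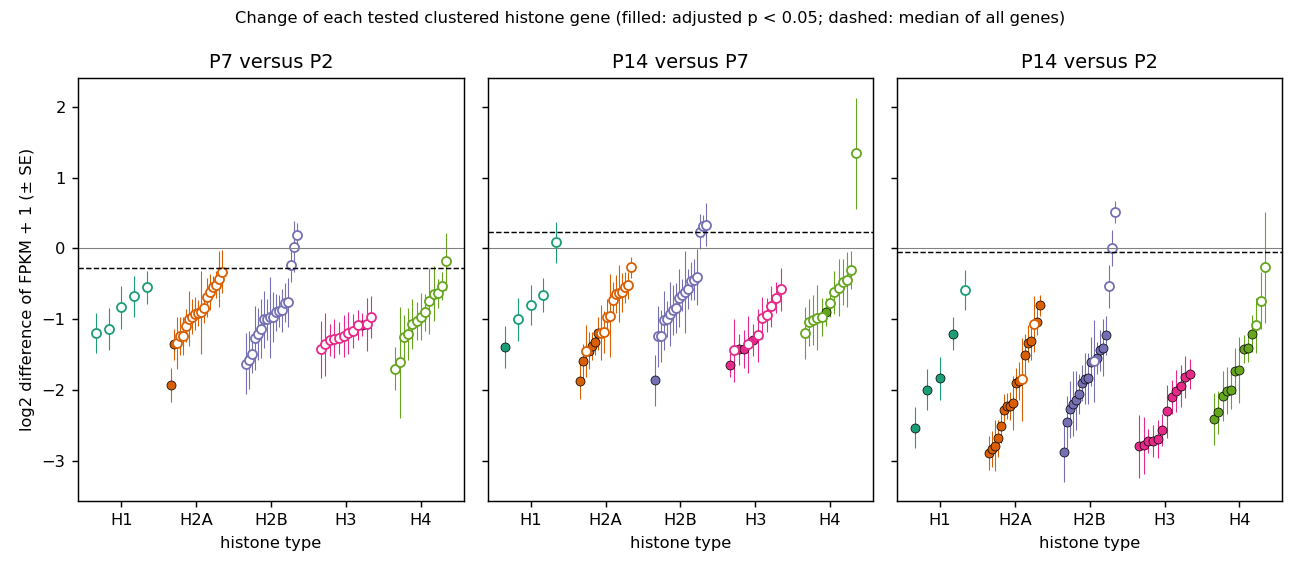
Log2 difference of FPKM + 1 (± SE of the fit) of the 66 tested members by histone type in each comparison (filled points: adjusted p below 0.05; dashed line: median of all tested genes). For P14 versus P2 all 12 H3 genes are filled and lie at or below -1.78, while the open points above -0.6 belong to H1, H2B and H4.

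The linker histone H1 binds DNA where it enters and leaves the nucleosome, and its somatic forms are encoded by Hist1h1a to Hist1h1e. Summed H1 FPKM was 286 and 421 at P2, 202 and 185 at P7, and 145 and 104 at P14, with no overlap between the stages. Hist1h1a (chr13:23763668-23764414) fell most of the H1 genes. Its FPKM was 80.0 and 115 at P2, 47.0 and 39.5 at P7, and 20.4 and 12.1 at P14. Each stage lay wholly below the stage before it, and the log2 difference P14 versus P2 was -2.53 ± 0.29 (SE; limma adjusted p = 0.00347). Hist1h1e (chr13:23621755-23622502), the most abundant H1 gene, had 104 and 134 FPKM at P2, 81.5 and 79.3 at P7, and 59.5 and 43.1 at P14. It fell by 1.21 ± 0.24 on the log2 scale (adjusted p = 0.0144), a call that ended without P14 replicate 2 (adjusted p = 0.0774).

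Hist1h1c (chr13:23738807-23740366) stood apart from the other somatic H1 genes. Its FPKM was 44.5 and 77.6 at P2, 38.0 and 35.0 at P7, and 44.0 and 34.1 at P14. Both P14 libraries lay below both P2 libraries, by little for the higher of them, and they spanned the P7 values. The log2 difference P14 versus P2 was -0.59 ± 0.29 (adjusted p = 0.177), and -0.98 without P2 replicate 1 (adjusted p = 0.0372). It was also called lower under quantile normalization (-0.88, adjusted p = 0.00977) and scaling to the protein-coding sum (-0.96, adjusted p = 0.0107). Its share of the summed H1 FPKM was 15.6% and 18.4% at P2, 18.8% and 19.0% at P7, and 30.3% and 33.0% at P14. The share of Hist1h1a went from 28.0% and 27.3% at P2 to 14.1% and 11.7% at P14. H1f0, a linker histone gene outside the clusters that is known from differentiated cells, held 25.4 and 37.5 FPKM at P2 and 36.5 and 30.2 at P14 (log2 difference 0.10 ± 0.23, adjusted p = 0.770). The clustered genes gave 91.8% of the FPKM summed over clustered H1 genes and H1f0 at P2, 87.5% at P7 and 78.8% at P14.

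Summed H2A FPKM was 399 and 535 at P2, 256 and 200.4 at P7, and 125 and 93.6 at P14. The H2A genes of Hist1 and Hist2 differed in how much remained at P14: 13.4% of the P2 sum for the 14 Hist1 genes and 34.8% for the 4 Hist2 genes, a difference that was not tested. Of the mean Hist2 sum of 198.8 FPKM at P2, Hist2h2aa1 and Hist2h2aa2 gave 155.6, and they retained 38.5%. Hist2h2ac and Hist2h2ab retained 21.4% and 25.4%. Hist1h2al had the largest fall of all members on the log2(FPKM + 1) scale. By the ratio of means several members fell below its 12.3% of the P2 mean, among them Hist1h2bp (8.04%) and, at low level, Hist1h2ba (6.12%). The deposited locus places Hist1h2al at chr13:51202688-51203065, far from the other Hist1 members, which lie between 21715763 and 23934851. GENCODE M21 gives no coding transcript for it, so its identity as a histone gene rests on the symbol and biotype in the deposited table. Its FPKM was 69.5 and 68.8 at P2, 21.9 and 13.9 at P7, and 9.54 and 7.52 at P14. P2 lay far above both later stages, and the log2 difference P14 versus P2 was -2.89 ± 0.24 (adjusted p = 0.00163). It was also called from P2 to P7, with a log2 difference of -1.93 (adjusted p = 0.0338). That call ended with a pseudocount of 0.1, without the filter on low values and with only the 4 libraries compared.

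Hist1h2ak (chr13:21753395-21753907) was called for P14 versus P7 but not for P7 versus P2. Its FPKM was 30.7 and 43.4 at P2, 22.3 and 14.9 at P7, and 3.998 and 4.51 at P14. Its log2 difference was -0.96 from P2 to P7 (adjusted p = 0.0926) and -1.87 from P7 to P14 (adjusted p = 0.0172), and the difference between the intervals was not called (-0.91 ± 0.43, adjusted p = 0.225). Hist1h2ao, whose coding sequence is the same as that of Hist1h2ap, had 21.3 and 28.4 FPKM at P2, 13.4 and 11.6 at P7 and 4.44 and 2.73 at P14 (log2 difference P14 versus P7 -1.59, adjusted p = 0.0214; difference between the intervals adjusted p = 0.312). In Hist2, Hist2h2aa1 and Hist2h2aa2 share 1 coding sequence and had nearly the same values. Their loci are exchanged between the deposited table and GENCODE M21, so which copy a symbol stands for is uncertain. Hist2h2aa1 had 60.3 and 90.7 FPKM at P2, 53.9 and 38.3 at P7, and 32.6 and 26.3 at P14. Its log2 difference P14 versus P2 was -1.31 ± 0.27 (adjusted p = 0.0179) and that of Hist2h2aa2 was -1.34 ± 0.26 (adjusted p = 0.0135). Both calls ended without P14 replicate 2, at an adjusted p of 0.0849 and 0.0693, and that of Hist2h2aa1 also without P14 replicate 1 (adjusted p = 0.0636). Hist2h2aa1 gave 16.2% of the H2A sum at P2 and 27.0% at P14, and Hist2h2aa2 gave 17.1% and 27.9%.

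The other H2A genes outside Hist1 were Hist2h2ac, Hist2h2ab and Hist3h2a. Hist2h2ac went from 34.3 and 46.1 FPKM at P2 to 11.9 and 5.22 at P14 (log2 difference -2.18 ± 0.39, adjusted p = 0.0108). Hist3h2a had the smallest called change among all 66 tested members, with 9.87 and 9.50 FPKM at P2, 6.06 and 6.62 at P7 and 5.42 and 4.81 at P14 (log2 difference -0.81 ± 0.15, adjusted p = 0.0122). That call ended without either P14 library (adjusted p = 0.0598 and 0.0709), and the locus overlaps Trim17, so reads may be shared. Hist2h2ab, at 1.35 and 4.80 FPKM at P2 and 0.531 and 1.03 at P14, and Hist1h2ad, at 1.96 and 8.91 at P2 and 1.25 and 0 at P14, did not pass the test. Their log2 differences were -1.07 ± 0.40 (adjusted p = 0.0957) and -1.85 ± 0.59 (adjusted p = 0.0617), both with P2 replicate 2 far above replicate 1. Without P2 replicate 1 both were called lower (adjusted p = 0.0128 and 0.0208), as they were under scaling to the protein-coding sum (0.0380 and 0.0254) and with protein-coding genes only (0.0495 and 0.0254). Hist1h2ad was called under median-of-ratios scaling too (0.0448).

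Summed H2B FPKM was 411 and 695 at P2, 293 and 256 at P7, and 192 and 127 at P14. Hist2h2bb (chr3:96269721-96279001) was the most abundant H2B gene as named in the deposited table. Its gene identifier has no coding transcript in GENCODE M21, where it has 2 exons over 9281 bases. Its coding sequence was read from another identifier with the same symbol, so its level as an H2B gene is uncertain. Its FPKM was 115 and 174 at P2, 75.6 and 74.96 at P7, and 42.7 and 32.4 at P14. The stages did not overlap and the log2 difference P14 versus P2 was -1.90 ± 0.26 (adjusted p = 0.00516). Its locus overlaps Gm20628, annotated on the other strand than Hist2h2bb, and the sources used here do not say if reads were counted by strand. Hist1h2bb fell from 69.6 and 139 FPKM at P2 to 30.8 and 14.9 at P14 (log2 difference -2.15 ± 0.42, adjusted p = 0.0143; 0.0571 without P14 replicate 2). Hist1h2bp had the largest fall of the type on the log2(FPKM + 1) scale, from 11.3 and 26.3 FPKM to 1.37 and 1.65 (log2 difference -2.87 ± 0.42, adjusted p = 0.00639).

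Hist1h2bf was the only H2B gene that limma called for P14 versus P7. Its FPKM was 22.5 and 50.8 at P2, 39.4 and 30.1 at P7, and 9.24 and 8.25 at P14. The P2 libraries enclosed the P7 libraries, and both P14 libraries lay far below. The log2 difference was 0.02 from P2 to P7 (adjusted p = 0.972) and -1.87 from P7 to P14 (adjusted p = 0.0325), and the difference between the intervals was not called (-1.89 ± 0.63, adjusted p = 0.166). With 1 library left out, the P2 to P7 value ranged from -0.55 to 0.59. Its call for P14 versus P2 (-1.84 ± 0.36, adjusted p = 0.0148) ended without either P14 library (adjusted p = 0.0652 and 0.0622).

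The H2B type also held the members whose level at P14 was closest to or above that at P2. Hist1h2bc (chr13:23684199-23692488) had 32.6 and 51.7 FPKM at P2, 33.7 and 36.1 at P7, and 44.7 and 38.1 at P14. Both later stages lay within the range of the P2 libraries, and the log2 difference P14 versus P2 was 0.01 ± 0.25 (adjusted p = 0.989), with a negative sign under quantile normalization (-0.27) and under scaling to the protein-coding sum (-0.37). Hist1h2bc gave 7.94% and 7.44% of the H2B sum at P2, 11.5% and 14.1% at P7, and 23.3% and 29.9% at P14. Hist1h2bg, which encodes the same protein as Hist1h2bc and Hist1h2be, fell to 17.9% of its P2 mean. The FPKM summed over these 3 genes retained 53.3% at P14, against 22.8% for the group of 4 that encodes another H2B protein (Hist1h2bf, Hist1h2bj, Hist1h2bl and Hist1h2bn). Hist1h2be had 9.42 and 15.2 FPKM at P2, 6.28 and 5.92 at P7, and 10.7 and 5.88 at P14, with a log2 difference of -0.54 ± 0.31 (adjusted p = 0.239). It was called lower under scaling to the protein-coding sum (-0.88, adjusted p = 0.0222). Hist1h2be and Hist1h2bc have annotated transcripts of up to 2506 and 1156 bases, and Hist1h2be overlaps Gm11398.

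Hist2h2be (chr3:96221121-96223738) was the member with the largest positive difference, at a low level. Its FPKM was 0.899 and 0.867 at P2, 1.18 and 1.13 at P7, and 1.84 and 1.56 at P14. Each stage lay wholly above the stage before it. The log2 difference P14 versus P2 was 0.52 ± 0.16 (adjusted p = 0.0535), just outside the threshold, and it passed at 0.0162 to 0.0489 under 6 alternatives that included median-of-ratios and quantile scaling. In the authors' deposited table of P14 versus P2 it is higher by a fold of 2.05 (p = 0.0068). The last H2B genes, at low level, were Hist3h2ba, Hist1h2bl and Hist1h2ba. Hist3h2ba fell from 4.62 and 2.99 FPKM at P2 to 0.632 and 0.617 at P14 (log2 difference -1.54 ± 0.22, adjusted p = 0.0061). Hist1h2bl, at 6.55 and 1.04 FPKM at P2 and 0.696 and 0 at P14, did not pass the test (-1.59 ± 0.58, adjusted p = 0.0887), but was called lower without P2 replicate 2 (0.00949), with a term for Xist (0.0327) and with protein-coding genes only (0.0414).

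**Figure D3:**
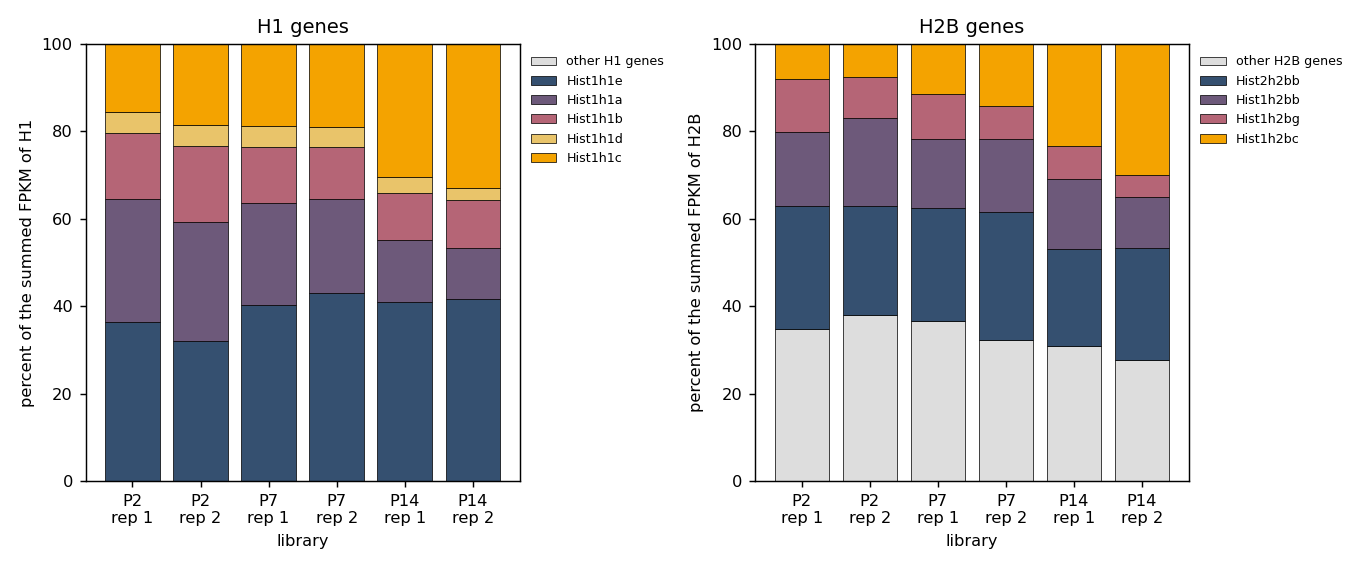
Share of each library's summed FPKM that single H1 genes (left) and H2B genes (right) contributed, in percent, for the 6 libraries. Hist1h1c goes from 15.6% and 18.4% of H1 at P2 to 30.3% and 33.0% at P14, and Hist1h2bc from 7.94% and 7.44% of H2B to 23.3% and 29.9%.

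H3 was the type with the least left at P14. Summed H3 FPKM was 217 and 320.0 at P2, 124 and 90.4 at P7, and 45.8 and 30.4 at P14, so that P14 retained 14.2% of the P2 mean against 34.4% for H4. H3 genes gave 11.0% and 10.7% of the FPKM of all clustered histone genes at P2, 9.18% and 7.63% at P7, and 5.40% and 5.14% at P14. H4 genes gave 33.5% and 33.9%, then 35.2% and 38.3%, then 40.1% and 39.9%. The stages did not overlap in either share, and no test was made of the shares.

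Hist2h3b (chr3:96268654-96269141) had the smallest adjusted p of all members. Its FPKM was 35.0 and 36.9 at P2, 17.8 and 15.3 at P7, and 5.01 and 4.21 at P14. Replicates were close and the stages far apart, with a log2 difference P14 versus P2 of -2.72 ± 0.17 (adjusted p = 0.000777). Both intervals were called as well, at -1.08 (adjusted p = 0.0473) and -1.65 (adjusted p = 0.0107). Both of these interval calls ended without the filter on low values. The call from P2 to P7 also ended with a pseudocount of 0.1 and with only the 4 libraries compared. Like Hist2h2bb it overlaps Gm20628. Hist1h3i, the H3 gene with the highest mean, had 36.7 and 41.5 FPKM at P2, 18.1 and 13.4 at P7, and 6.94 and 3.83 at P14 (log2 difference -2.69 ± 0.27, adjusted p = 0.00246). Hist1h3c had the largest H3 change on the log2(FPKM + 1) scale, from 15.3 and 23.9 FPKM to 3.41 and 0.908 (log2 difference -2.80 ± 0.45, adjusted p = 0.00796).

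Hist1h3b fell from 19.0 and 44.8 FPKM at P2 to 5.72 and 4.65 at P14 (log2 difference -2.30 ± 0.38, adjusted p = 0.00846). Hist2h3c1 and Hist2h3c2, the other H3 genes of Hist2, had log2 differences of -1.95 ± 0.29 (adjusted p = 0.00674) and -2.10 ± 0.24 (adjusted p = 0.00333). H3f3a and H3f3b lie outside the clusters and encode the replacement variant that is deposited outside S phase. Their summed FPKM was 151 and 195 at P2, 131 and 158 at P7, and 166 and 142 at P14, with overlapping stages. H3f3a had a log2 difference P14 versus P2 of 0.07 ± 0.23 (adjusted p = 0.859), and H3f3b fell by 0.74 ± 0.20 on the log2 scale (adjusted p = 0.0398). Clustered H3 genes gave 58.9% and 62.1% of the FPKM summed over clustered H3 genes, H3f3a and H3f3b at P2, 48.6% and 36.4% at P7, and 21.6% and 17.6% at P14.

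Summed H4 FPKM was 662 and 1010.2 at P2, 476 and 454 at P7, and 339.8 and 236 at P14. Hist1h4d (chr13:23581598-23581990) had the highest level of all members. Its FPKM was 176 and 187 at P2, 126 and 125 at P7, and 74.3 and 60.2 at P14. The replicates were close at each stage, and the log2 difference P14 versus P2 was -1.43 ± 0.20 (adjusted p = 0.00559). Hist1h4h went from 99.9 and 146 FPKM at P2 to 60.9 and 44.2 at P14 (log2 difference -1.20 ± 0.27, adjusted p = 0.0206), a call that ended without P2 replicate 2 or either P14 library (adjusted p from 0.0510 to 0.102). Hist1h4b had 32.8 and 48.3 FPKM at P2, 14.2 and 9.46 at P7 and 9.02 and 5.70 at P14 (log2 difference P14 versus P2 -2.32 ± 0.30, adjusted p = 0.00464). Its log2 difference P7 versus P2 of -1.70 was not called (adjusted p = 0.0535), nor was the difference between its intervals (adjusted p = 0.228).

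Hist1h4c, Hist1h4i and Hist4h4 did not pass the test between P2 and P14. Hist1h4c (chr13:23698060-23698454) had 59.2 and 149.5 FPKM at P2, 83.2 and 82.4 at P7, and 57.0 and 55.2 at P14. The P2 libraries lay far apart and enclosed the P7 values (log2 difference P14 versus P2 -0.74 ± 0.40, adjusted p = 0.216; -1.40, adjusted p = 0.0126 without P2 replicate 1). It was also called lower under quantile normalization (-1.11, adjusted p = 0.0299) and scaling to the protein-coding sum (-1.12, adjusted p = 0.0334). Hist1h4i (chr13:22040816-22041352) had the largest SE of all tested members for P14 versus P2 on the log2(FPKM + 1) scale. Its FPKM was 4.87 and 25.1 at P2, 3.01 and 3.08 at P7, and 18.6 and 4.39 at P14. P2 replicate 2 and P14 replicate 1 stood far above the other 4 libraries, and the log2 difference P14 versus P2 was -0.26 ± 0.78 (adjusted p = 0.831). Hist4h4, on chromosome 6, had 5.17 and 13.9 FPKM at P2 and 3.30 and 3.76 at P14 (log2 difference -1.08 ± 0.39, adjusted p = 0.0854). It was called lower without P2 replicate 1 (0.0110), under scaling to the protein-coding sum (0.0223) and with protein-coding genes only (0.0444). Hist2h4 fell from 6.21 and 9.30 FPKM to 2.28 and 2.23 (log2 difference -1.40 ± 0.20, adjusted p = 0.00604).

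**Figure D4:**
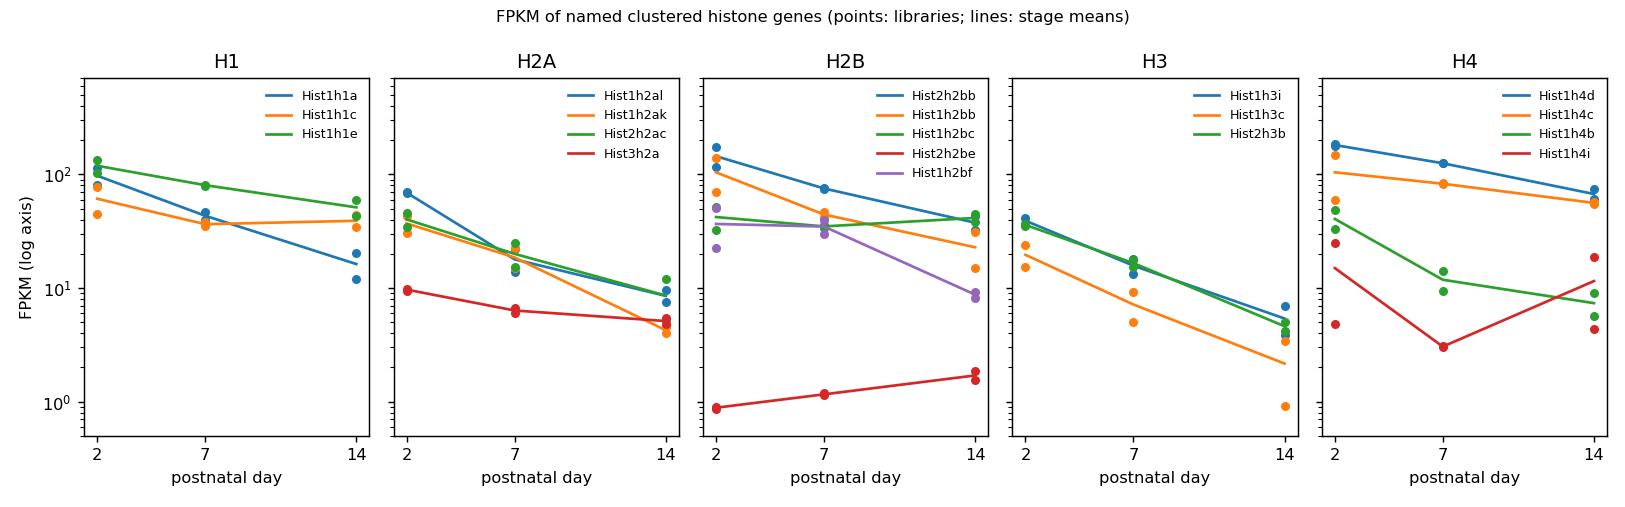
FPKM (log axis) of named members by postnatal day, in a panel per histone type (points: libraries; lines: stage means). Most lines descend, such as Hist1h3c from 15.3 and 23.9 FPKM to 3.41 and 0.908, while Hist1h1c goes from 44.5 and 77.6 to 44.0 and 34.1, Hist1h2bc from 32.6 and 51.7 to 44.7 and 38.1 and Hist2h2be from 0.899 and 0.867 to 1.84 and 1.56.

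Genes for the testis forms Hist1h1t, Hist1h2aa and Hist1h2ba were low. Hist1h2aa was listed at 0 in all 6 libraries, and Hist1h1t was between 0 and 0.508 FPKM. Both stayed below the level needed for a test. Hist1h2ba had 1.46 and 4.02 FPKM at P2, 1.28 and 0.879 at P7, and 0.335 and 0 at P14 (log2 difference -1.60 ± 0.35, adjusted p = 0.0196; 0.0588 and 0.0829 without either P14 library).

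H2A and H2B genes often stand head to head and share a short upstream stretch. In the deposited loci 12 such pairs of members lie 167 to 305 bases apart on opposite strands. Both genes were tested in 11 pairs, and both fell between P2 and P14 in 7, where 56 of the 66 single members fell. The partners of Hist1h2bc and Hist2h2be fell: Hist1h2ac, next to Hist1h2bc, retained 24.7% of its P2 mean where Hist1h2bc retained 98.2%. Hist2h2ac, next to Hist2h2be, retained 21.4% of its P2 mean where Hist2h2be stood at 192%. Among tested members with a coding transcript, the 18 with an annotated transcript of at least 1000 bases had a median log2 difference P14 versus P2 of -1.32, from -2.27 to 0.52. The other 47 had a median of -2.06, from -2.87 to -0.26. Hist2h2bb is counted there by the transcript of 381 bases matched by its symbol. The log2(FPKM + 1) scale understates the fall of low members. Hist1h2bq, among the 18, had a difference of -1.23 with 12.9% of its P2 mean left. How much of the gap between the medians comes from this scale was not tested. Hist1h1c, Hist1h2bc, Hist1h2be and Hist2h2be are among the 18, and this grouping was made with the values known, so it has no test.

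The replicates of a stage differed in one direction across the members. At P2, 61 of 66 were higher in replicate 2, with a median log2 difference between replicates of 0.57 against 0.25 for all genes. At P7, 10 of 66 were higher in replicate 2 (median -0.23 against 0.01), and at P14 6 of 66 (median -0.41 against -0.13). The replicate with higher members was the one with Xist at P2 and at P7, and no P14 library had Xist. With a term for Xist the median member difference was -1.74 for P14 versus P2 and -0.70 for P14 versus P7, against -1.90 and -0.91. The part of sex in the histone changes was not tested. In the authors' deposited tables between replicates, 9 members were higher at P2 (1.65% of all tested genes), 6 lower at P7 (1.04%) and 9 lower at P14 (0.9%), each at an unadjusted p below 0.05. These shifts are part of the SE of each member, and members moving together are not independent replicates of the change.

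Genes that act beside histones were read from lists of known roles, shown as sums in the plot beside other lists. Of 16 genes for histone mRNA synthesis and processing 14 were tested, of which 2 fell and 1 rose between P2 and P14, with a median log2 difference of -0.14. These shares are near those of all tested genes, 12.9% lower and 11.5% higher. Slbp had 14.8 and 18.0 FPKM at P2, 10.9 and 10.1 at P7, and 8.23 and 5.58 at P14. It fell by 1.15 ± 0.21 on the log2 scale (adjusted p = 0.0117), and Eri1 fell by 0.63 ± 0.16 (adjusted p = 0.0299). Mif4gd, a partner of Slbp in histone mRNA translation, rose by 0.84 ± 0.17 (adjusted p = 0.0165). Of 23 histone chaperone genes, all tested, 8 fell and none rose (median -0.57). They included Asf1b, which carries new H3 and H4 (log2 difference -1.59 ± 0.21, adjusted p = 0.0051), and Chaf1b of chromatin assembly factor (-1.44 ± 0.18, adjusted p = 0.00442). Mms22l, which acts at damaged replication forks, fell too (-1.25 ± 0.18, adjusted p = 0.00589).

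Of 11 histone genes outside the clusters 10 were tested, of which 4 fell and none rose, with a median log2 difference of -0.28. Over all tested genes 12.9% were lower and 11.5% higher at P14 than at P2. H2afx, the variant phosphorylated at DNA breaks, had 10.01 and 14.1 FPKM at P2, 5.13 and 3.48 at P7 and 2.59 and 2.13 at P14 (log2 difference -1.94 ± 0.23, adjusted p = 0.0035). Cenpa, the H3 variant of centromeres, fell by 1.69 ± 0.26 on the log2 scale (adjusted p = 0.00707), and H2afy2, a macroH2A gene, by 0.97 ± 0.17 (adjusted p = 0.0103). The fourth was H3f3b, given above. The sum of this list retained 84.5% of its P2 mean at P14.

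DNA replication genes moved in the same direction as the clustered histones. Of 27 tested, 24 fell and none rose between P2 and P14 (median -1.21), where 12.9% of all tested genes were lower and 11.5% higher. Their summed FPKM retained 47.6% at P7 and 36.8% at P14. Rrm2, a ribonucleotide reductase subunit, had 11.6 and 11.4 FPKM at P2, 5.04 and 5.02 at P7 and 1.85 and 2.15 at P14 (log2 difference -2.06 ± 0.14, adjusted p = 0.000921). Ccne1, the G1/S cyclin E, and Lig1, which joins Okazaki fragments, fell by 1.87 ± 0.25 and 1.84 ± 0.15 on the log2 scale (adjusted p = 0.00513 and 0.00163). All 12 mitosis genes fell (median -1.67), and their sum retained 50.4% at P7 and 22.9% at P14. Mki67, Top2a and Cdk1 led with -2.17 ± 0.20, -1.94 ± 0.22 and -1.91 ± 0.21 (adjusted p = 0.00191, 0.00347 and 0.00307).

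**Figure D5:**
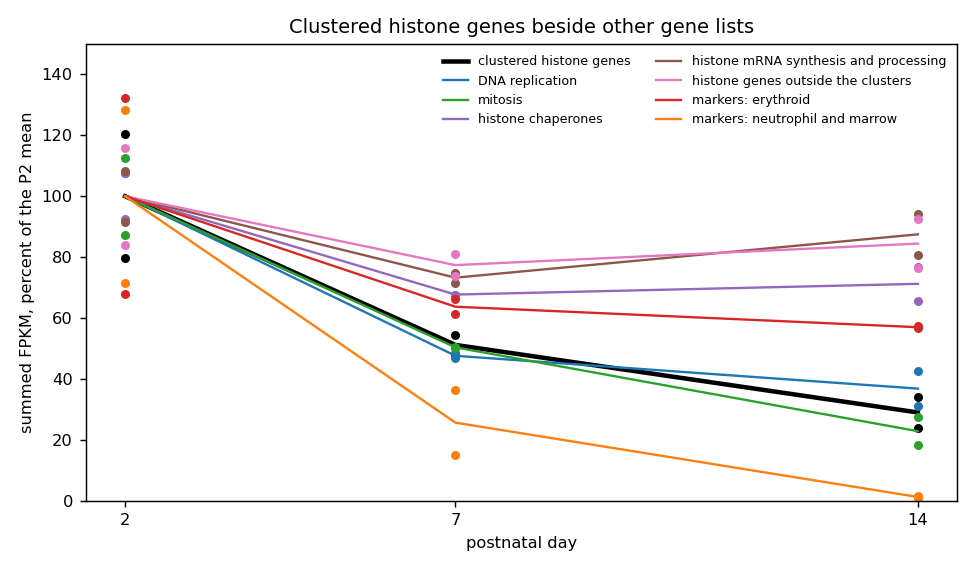
Summed FPKM of the clustered histone genes and of 7 other gene lists, as percent of each list's P2 mean, by postnatal day (points: libraries; lines: stage means). At P14 the clustered histones stand at 29.0%, between DNA replication (36.8%) and mitosis (22.9%), and the histone genes outside the clusters at 84.5%.

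Markers of other cell types moved with the same comparison, in which 12.9% of all tested genes were lower and 11.5% higher. All 9 neutrophil and marrow markers fell between P2 and P14, and their summed FPKM was 306 and 171 at P2, 86.8 and 35.6 at P7, and 3.48 and 2.45 at P14. S100a9, a calcium-binding protein of neutrophils, had a log2 difference of -5.33 ± 0.45 (adjusted p = 0.00163), S100a8 of -5.27 ± 0.44 (adjusted p = 0.00163) and the granule peptide gene Camp of -3.62 ± 0.35 (adjusted p = 0.00217). Camp, Elane and Retnlg were listed at 0 in both P14 libraries. Between replicates, the summed FPKM of these markers was higher in replicate 1 at all 3 stages, while that of the histones was higher in replicate 2 at P2 and in replicate 1 at P7 and P14. Of 8 tested erythroid markers 3 fell, among them Slc4a1 (-2.65 ± 0.31, adjusted p = 0.00347) and Hemgn (-2.48 ± 0.17, adjusted p = 0.000863). The summed erythroid FPKM was 997 and 1941 at P2, 974 and 899 at P7, and 842 and 833 at P14. Its replicates stood in the same order as those of the histones at each stage. The sums of the DNA replication, mitosis, endothelial and histone mRNA synthesis and processing lists stood in that order too. Those of the remaining lists did not. The part of neutrophil, marrow and erythroid cells in the histone changes was not tested.

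The labelled tissue showed its defining genes, since all 5 muscle fibre markers found were tested and rose from P2 to P14. Of all tested genes 11.5% were higher and 12.9% lower. The summed FPKM of these fibre markers was 3942 and 5872 at P2 and 14776 and 11146 at P14, with Ckm, Atp2a1 and Tnnt3 leading (Ckm 1.60 ± 0.32, adjusted p = 0.0149). Among 4 satellite cell markers 3 fell: Vcam1 (-1.22 ± 0.20, adjusted p = 0.00849), Myf5 (-0.80 ± 0.15, adjusted p = 0.0133) and Pax7 (-0.56 ± 0.16, adjusted p = 0.0405). The satellite cell sum was 22.4 and 21.6 FPKM at P2, and 16.3 and 16.2 at P14. Of 3 tested cartilage markers Acan fell (-1.33 ± 0.22, adjusted p = 0.00832), and the list's sum was 28.5 and 7.13 FPKM at P2, 33.5 and 35.5 at P7 and 4.85 and 3.71 at P14. Of 4 macrophage markers Cd68 fell (-1.02 ± 0.15, adjusted p = 0.00674), with a list sum of 39.8 and 55.6 FPKM at P2 and 38.2 and 36.4 at P14. None of the 4 fibroblast or 4 endothelial markers was called by limma, with Dcn at 0.58 ± 0.28 (adjusted p = 0.173) and Cdh5 at 0.78 ± 0.30 (adjusted p = 0.104). No lymphocyte marker was high enough for a test, and the sum of the 4 was at most 2.18 FPKM.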

How the data were processed

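RNA was measured in 6 libraries of mouse hindlimb muscle. Per the labels' protocols, 200 ng of RNA entered a strand-specific library kit after removal of ribosomal RNA. The submitters' processing notes name Cuffdiff 2.2.1 and Cufflinks 2.2.1, the aligner TopHat2 2.0.8, and also CASAVA 1.2-14 and FastQC 0.10.1, with the build GRCm38. The annotation, the treatment of multiply mapped reads and the use of strand are not given in the sources used here. Levels are FPKM values deposited by the authors, 1 column per library. Their scaling between libraries is not given. The authors' deposited comparison tables hold, per the file headers, a fold change and an unadjusted p-value. In all of their lines the fold equals the ratio of the larger FPKM to the smaller, with values below 1 raised to 1 (tolerance 0.001 of the ratio).

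The 13566 genes at 1 FPKM or more in 2 or more libraries were analysed as log2(FPKM + 1). This scale understates changes of low genes. A mean per stage was fitted to the 6 libraries with limma 3.58.1 in R 4.3.3 (variance trend, 3 residual and 3.80 prior degrees of freedom). Two-sided p-values were adjusted over the 13566 genes (Benjamini-Hochberg) and called below 0.05. The fit was tested on simulated data. FPKM is no count, so depth was estimated from the worth of 1 fragment. For 23 single-exon members, 42 of 49 values under 30 fragments were whole within 0.1 fragment. The worth of 1 fragment depends on gene length, and counts were not rebuilt for other genes. The design text calls the 2 libraries of a stage biological replicates. The labels name no animals, so p-values measure the spread between these libraries only.

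The members and lists were chosen with earlier results of these data known. Named members were, per type, the 3 highest by mean FPKM, per comparison the 4 largest and 2 smallest changes, all tested members outside Hist1, all tested members not called for P14 versus P2, and the testis forms. From each other list the 3 largest changes were taken. One gene that this rule names is not reported here. Promoters are from RefSeq (GRCm38.p6), and transcripts from GENCODE M21 (GRCm38). Coordinates are those of the deposited table, counted from 1. Alternatives covered the pseudocount, the filter, scaling, moderation, the replicate block, a term for Xist, summing members with the same protein and leaving out each library.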

Additional observations from a re-analysis of the deposited data

Results flagged for a closer look

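Hist3h2bb-ps, an H2B pseudogene at chr11:58954048-58954512 that the protein-coding rule leaves out, carried signal in all 6 libraries. Its FPKM was 9.49 and 5.01 at P2 (mean 7.25), 2.64 and 2.80 at P7, and 1.23 and 1.67 at P14. The log2 difference P14 versus P2 was -1.70 ± 0.27 (limma adjusted p = 0.00766), in the direction of the members. Whether its reads belong to near-identical genes was not tested. The only other Hist-named line outside the set, Hist1h2aj, was listed at 0 in all 6 libraries.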

How the results depend on the processing

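Between P2 and P14, the number of members called lower was 40 to 62 under the alternatives that kept all 6 libraries and single genes, against 56. With 1 library left out the median member difference ranged from -2.21 to -1.65, and fewer genes were called lower over the whole table. The 62 came with scaling to the protein-coding sum, where 4960 of all 13566 genes were lower and 1267 higher and the all-gene median was -0.34. With members of the same protein summed, 27 of 30 features were lower. Of the 56, 40 were called in each of the 12 alternatives that keep all members. One member, Hist2h2be, was called higher (count 1, against 0) with a pseudocount of 5, under median-of-ratios or quantile scaling, with protein-coding genes only, without the variance trend and with robust moderation.

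From P2 to P7 the count of lower members was 0 with a pseudocount of 0.1, without a filter or with only the 4 libraries compared, and 1 with a term for Xist. It was 6 with FPKM of at least 5 (55 members tested) or quantile scaling, 7 with the protein-coding sum and 8 with a pseudocount of 5. It was 9 with robust moderation and 24 with protein-coding genes only. Calls over all genes moved too. In the order named, 22, 8 of 29496, 25 and 30 genes were lower in the fits with 0 or 1 member. In the others 118 of 7245, 101, 198, 262, 287 and 657 of 12048 were lower, against 160 of 13566. From P7 to P14 the count was 0 without a filter, 7 of 30 features with the same protein summed and 20 with robust moderation. It was 25 of 55 with FPKM of at least 5, 26 with only the 4 libraries and 30 with protein-coding genes only. In that order, 5 of 29496, 213 of 13530, 287, 198 of 7245, 410 and 328 of 12048 genes were lower, against 217 of 13566. The member count was 39, 36 and 45 under median-of-ratios, quantile and protein-coding-sum scaling. The F test called 11 without a filter and 26 of 30 features with the same protein summed, against 54 of 66 members. With 1 library left out the ranges were 0 to 1 for P7 versus P2, 0 to 26 for P14 versus P7 and 23 to 60 for the F test, and the lone library of a stage is assumed to vary like the others. The cause was not tested.

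The replicate numbers of the sample titles showed no pairing of libraries: the correlations of same-numbered deviations were -0.02 (P2 and P7), -0.16 (P2 and P14) and 0.03 (P7 and P14). The submitters' column names number the P2 and P14 libraries otherwise, and pairing by those numbers was not tested. With a replicate block the counts were 54 for P14 versus P2, 1 for P7 versus P2, 7 for P14 versus P7 and 42 for the F test. Over all 13566 genes 1291, 27 and 77 were lower in these 3 comparisons with the block, against 1744, 160 and 217. The share of all genes in the F test with the block is not given here.

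Signs turned only for values that were not called. For P14 versus P7, Hist1h1c was at -0.24, -0.43 and -0.43 and Hist1h2bc at -0.091, -0.28 and -0.28 under median-of-ratios, quantile and protein-coding-sum scaling, and Hist1h2be at -0.13 under the last. For P7 versus P2, Hist1h2bc was at 0.095 and 0.0099 and Hist1h4c at 0.15 and 0.042 under median-of-ratios and quantile scaling. For P14 versus P2, Hist1h2bc was at -0.27 and -0.37 under quantile and protein-coding-sum scaling, and Hist1h4i at 0.27 with the Xist term. With 1 library left out, P14 versus P2 ranged from -0.32 to 0.33 for Hist1h2bc and from -1.34 to 0.81 for Hist1h4i. P7 versus P2 ranged from -0.56 to 0.093 for Hist1h2bc, from -0.55 to 0.59 for Hist1h2bf, from -0.85 to 0.48 for Hist1h4c and from -1.08 to 0.22 for Hist2h2ab. P14 versus P7 ranged from -0.091 to 0.27 for Hist1h1c and from -0.046 to 0.72 for Hist1h2be. Summed FPKM at P14 over P2 went from 0.352 to 0.270 for H1, 0.234 to 0.179 for H2A, 0.142 to 0.109 for H3 and 0.344 to 0.264 for H4 under the protein-coding sum. Without P2 replicate 2 it was 0.388 for H2B and 0.435 for H4.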
